A study of Mus musculus with 514 samples.

Results

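Late 2-cell mouse embryos that lacked both Nr5a2 and Esrrb, maternally and zygotically (mz_DKO), were compared with embryos heterozygous for the deletion of both genes (mz_DHet). The comparison rests on 13 full-length RNA-seq libraries of single embryos, 6 mz_DKO and 7 mz_DHet, of the 514 samples in the series, chosen by their labels alone. Each library holds the polyadenylated RNA of a whole embryo, so fewer expressing cells and less RNA per cell cannot be told apart. Reads with a unique molecular identifier (UMI), which mark the 5′ ends of transcripts, gave a second readout of the same 13 embryos. Both readouts are in transcripts per 1000000 (TPM), a level corrected for transcript length. Of the mz_DHet libraries, 5 carry the date 22 May 2022 and 2 the date 8 March 2022. Of the mz_DKO libraries, 2 (replicates 1 and 2) carry 22 May and 4 carry 8 March. The labels do not say what the date is a date of. The other late 2-cell embryos used are 10 mz_NrKO (Nr5a2 lost maternally and zygotically), 10 mz_EKO (Esrrb lost likewise), 7 z_NrHet and 6 z_NrKO (heterozygous for, or lacking, Nr5a2 zygotically). The z_NrHet, z_NrKO and mz_NrKO libraries all carry 8 March, and mz_EKO 8 March (8) and 17 June (2). The sources used here give no Cre driver, strain or mother for these embryos.

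Nr5a2 and Esrrb are orphan nuclear receptors that bind DNA at closely related sites, a short extended half-site with the core AGGTCA. Both are transcription factors of early embryos and pluripotent stem cells. The late 2-cell stage follows the major wave of zygotic genome activation, when the embryo makes its own transcripts and clears those laid down in the oocyte.

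Gene-level values cannot show which exons were deleted, and transcripts of both targeted genes were listed in all 6 mz_DKO embryos. The level of Nr5a2 (chromosome 1 of mm10, 136842571 to 136960448) was 551 ± 167 TPM (SD, n = 6) in mz_DKO and 532 ± 113 TPM (n = 7) in mz_DHet (log2 fold change 0.23 ± 0.34 SE, adjusted p = 0.925). Esrrb (chromosome 12, 86361117 to 86521628) stood at 13.6 ± 4.17 and 16.4 ± 7.84 TPM (-0.17 ± 0.57, adjusted p = 0.976). The 35 listed genes of the 2-cell burst summed to between 3070 and 7000 TPM in mz_DKO and between 4070 and 8930 TPM in mz_DHet. Their highest single values were in Obox6 (2430 TPM), Sp110 (2340), AF067063 (1250) and Tdpoz4 (1030). The stage markers Zscan4c, Zscan4d and Zfp352 reached at most 18.8, 21.1 and 125 TPM in the 13 libraries. Between 13319 and 14744 genes exceeded 1 TPM in mz_DKO embryos and between 13784 and 14881 in mz_DHet (exact permutation test, two-sided, p = 0.634). The read depth is unknown, because TPM keep no counts. The mz_DKO replicate 2 library had the fewest genes above 1 TPM (13319) and the 13 libraries correlated with the other 12 at a mean of 0.818 to 0.844 (0.825 for this library). Date mattered widely, with 1275 of 14147 genes called between 8 March and 22 May, and the model fitted over all genes has the date as a factor. The permutation test of detected genes above does not take the date into account.

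With both receptors lost, 20 of 14147 genes fell and 0 rose (0.141% called, Benjamini-Hochberg adjusted p under 0.05 in limma; 1181 genes, 8.35%, at an unadjusted p under 0.05). Log2 fold changes of the fallen genes lay between -0.89 and -4.61 on the log2(TPM + 1) scale, against a median of 0.039 for all genes. In 10 of the 20, all 6 mz_DKO embryos lay below all 7 mz_DHet embryos, which 67 of the 14147 genes did (0.474%), and 60 genes (0.424%) had all 6 above. The count rested on 1 library. Without mz_DKO replicate 2 only Tulp1 was called, without mz_DHet replicate 3 the count was 11 and without mz_DHet replicate 7 it was 13. On a single date 0 of the 20 passed in limma, although all 20 were lower in mz_DKO on both dates, as were 24.3% of all genes.

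**Figure D1:**
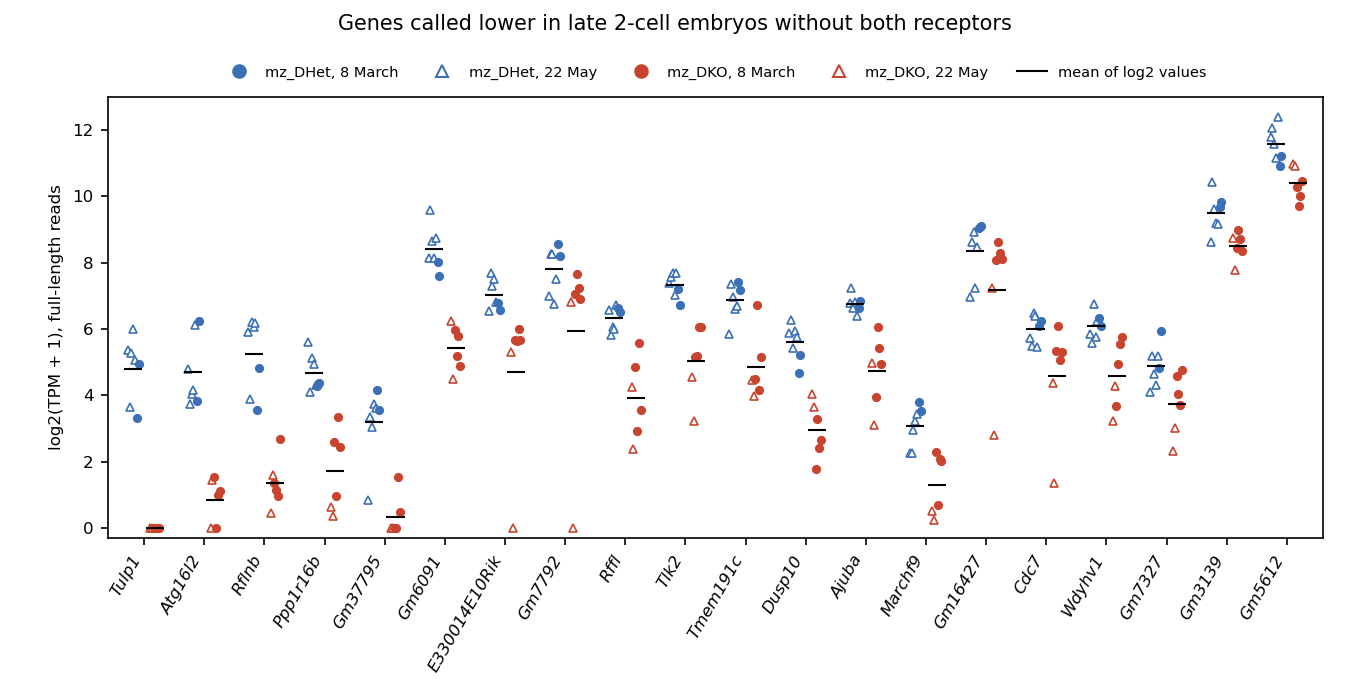
Full-length level of each of the 20 called genes in every embryo, as log2(TPM + 1), with mz_DHet in blue and mz_DKO in red, filled circles for 8 March, open triangles for 22 May and bars for the mean of the log2 values. Tulp1 is at 0 in all 6 mz_DKO embryos, and a single mz_DKO embryo of 22 May lies far below the others in E330014E10Rik, Gm7792, Gm16427 and Cdc7.

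Tulp1, a tubby-like protein known from photoreceptors (chromosome 17, 28351515 to 28365222), was listed at 0 TPM in all 6 mz_DKO embryos. In mz_DHet it lay between 8.97 and 62.8 TPM with a median of 32.4 TPM. The groups did not overlap on either date, and Tulp1 was the 1 gene called with each of the 13 libraries left out in turn (adjusted p = 3.23e-05 with all 13). Since mz_DKO is at 0, the size of every log2 fold change of Tulp1 at this stage depends on the pseudocount. It ran from -7.87 to -2.55 over the 10 full-length alternatives. Tmem191c, a transmembrane protein gene (chromosome 16, 17276077 to 17283229), lay between 15.0 and 105.2 TPM in mz_DKO with a median of 21.5 TPM. In mz_DHet it lay between 56.7 and 171 TPM with a median of 124 TPM, a log2 fold change of -2.31 ± 0.40 (adjusted p = 0.00271). A single mz_DKO embryo, replicate 4 at 105.2 TPM, lay inside the control range. In UMI reads Tmem191c stood at 34.9 ± 50.6 and 157 ± 67.9 TPM, and its fall there passed the test over all genes (-3.01 ± 0.51, adjusted p = 0.00492).

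The called genes are described by their known roles, beginning with the kinases Tlk2 and Cdc7. Tlk2, a tousled-like kinase that acts on histone chaperones (chromosome 11, 105178807 to 105283959), lay between 8.30 and 66.4 TPM in mz_DKO (median 35.0) and between 104.8 and 205 TPM in mz_DHet (median 167). No mz_DKO embryo reached the lowest control (log2 fold change -2.50 ± 0.44, adjusted p = 0.00271). Cdc7, the kinase that fires replication origins (chromosome 5, 106964322 to 106984432), lay between 1.59 and 67.5 TPM in mz_DKO (median 35.4) and between 43.4 and 88.3 TPM in mz_DHet (median 67.6). In Cdc7 5 of 6 mz_DKO embryos were below all controls (-1.92 ± 0.43, adjusted p = 0.0365). The lowest value of either kinase was in mz_DKO replicate 2, and without it the log2 fold changes were -1.95 for Tlk2 and -1.03 for Cdc7 (adjusted p = 0.144 and 0.725). Of the 59 DNA replication genes tested these 2 fell and 0 rose, against 0.141% called over all genes. Before adjustment 6 members were higher (10.2%) and 5 lower (8.47%), against 4.21% and 4.14% of all genes. The median log2 fold change was -0.0030.

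Ajuba, Dusp10, Ppp1r16b and Rflnb encode proteins of signalling or of the actin cortex. Ajuba, a LIM protein that binds the Lats kinases of the Hippo pathway (chromosome 14, 54567472 to 54577558), lay between 7.68 and 65.4 TPM in mz_DKO (median 30.2) and between 83.3 and 151 TPM in mz_DHet (median 108.1). The ranges did not overlap (-2.20 ± 0.49, adjusted p = 0.0365; -1.70, adjusted p = 0.478 without mz_DKO replicate 2). Dusp10, a phosphatase of the stress-activated MAP kinases (chromosome 1, 184013302 to 184075636, 47.05 Mb from Nr5a2), lay between 2.44 and 15.4 TPM in mz_DKO (median 7.03). All 7 controls were higher, between 24.6 and 76.4 TPM with a median of 53.3 TPM (-2.21 ± 0.50, adjusted p = 0.0408). With a library left out, Dusp10 kept its call in 1 of 13 runs (adjusted p up to 0.21 in limma). Ppp1r16b, a regulatory subunit of protein phosphatase 1 (chromosome 2, 158665398 to 158766334), lay between 0.298 and 9.24 TPM in mz_DKO (median 2.72) and between 16.4 and 47.4 TPM in mz_DHet (median 19.8). It had no overlap either (-3.19 ± 0.58, adjusted p = 0.00401). Rflnb, refilin B, which binds filamin and bundles actin (chromosome 11, 76019194 to 76027782), lay between 0.381 and 5.45 TPM in mz_DKO (median 1.41) and between 10.8 and 73.8 TPM in mz_DHet (median 59.7; -3.67 ± 0.77, adjusted p = 0.0207). Its controls were uneven, with 10.8, 13.9 and 27.2 TPM in mz_DHet replicates 6, 2 and 7 and at least 59.7 TPM in the other 4. Of 34 polarity, adhesion and Hippo genes tested, Ajuba fell and 0 rose, against 0.141% called over all genes. Before adjustment 1 member was higher (2.94%) and 3 were lower (8.82%), against 4.21% and 4.14% of all genes. The median log2 fold change was -0.037.

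Another 4 called genes, Rffl, Atg16l2, Marchf9 and Wdyhv1, were not on a list tested as a group and are given singly. Rffl, a ubiquitin ligase of endosomes (chromosome 11, 82802449 to 82871210), lay between 4.27 and 46.5 TPM in mz_DKO (median 14.4) and between 55.3 and 104.8 TPM in mz_DHet (median 90.0). Its groups did not overlap (-2.64 ± 0.47, adjusted p = 0.00328). Atg16l2, a relative of the autophagy protein Atg16l1 (chromosome 7, 101263034 to 101302251), lay between 0 and 1.89 TPM in mz_DKO (median 1.08) and between 12.3 and 74.2 TPM in mz_DHet (median 16.9). Every control stood above every mutant (-3.98 ± 0.79, adjusted p = 0.0119). Marchf9, a membrane-bound ubiquitin ligase (chromosome 10, 127055011 to 127060184), was low in both groups, with 1.92 ± 1.68 TPM in mz_DKO against 8.05 ± 3.47 TPM in mz_DHet (-2.18 ± 0.48, adjusted p = 0.0343). Wdyhv1, which deamidates N-terminal glutamine in the N-degron pathway (chromosome 15, 58141377 to 58158665), lay between 8.45 and 53.6 TPM in mz_DKO (median 24.1) and between 46.8 and 106.98 TPM in mz_DHet (median 67.4; -1.77 ± 0.35, adjusted p = 0.00988). A single mz_DKO embryo overlapped with the controls in Marchf9 and in Wdyhv1.

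The other 8 are predicted genes or pseudogenes, whose reads may be shared with near copies, so their single values are uncertain. A cluster of 4 of them lies on chromosome 5 between 93 and 96 Mb, namely Gm16427 (93481829 to 93540200), Gm7792 (93843776 to 93856107), Gm3139 (94526287 to 94546423) and E330014E10Rik (95775990 to 95804708). Gm7792 and E330014E10Rik were listed at 0 in mz_DKO replicate 2 and Gm16427 at 6.06 TPM, while the other 5 mz_DKO embryos lay at 110.6 to 201, 39.0 to 62.5 and 149 to 390 TPM. Without that library their log2 fold changes were -1.01, -1.28 and -0.81, in place of -2.72, -2.78 and -1.95 (adjusted p = 0.626, 0.532 and 0.788). Gm3139 stood at 374 ± 98.6 TPM in mz_DKO and 776 ± 319 TPM in mz_DHet (-1.13 ± 0.24, adjusted p = 0.0263). Among the processed pseudogenes, Gm6091 (chromosome 8, 126476248 to 126476412) stood at 46.1 ± 20.9 against 373 ± 194 TPM without overlap (-2.83 ± 0.46, adjusted p = 0.00126). Gm5612 (chromosome 9, 18427543 to 18427917), the most abundant of the 20, stood at 1405 ± 468 against 3242 ± 1233 TPM (-0.89 ± 0.18, adjusted p = 0.016), and Gm7327 (chromosome X, 61785381 to 61786032) at 14.7 ± 8.76 against 31.1 ± 14.8 TPM (-1.58 ± 0.36, adjusted p = 0.0469). Gm37795 (chromosome 4, 150068539 to 150070997), of GENCODE's TEC class (loci whose transcripts await experimental proof) and overlapping Mir34a on the same strand, stood at 0.386 ± 0.764 against 9.82 ± 5.01 TPM (-3.13 ± 0.58, adjusted p = 0.00481).

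**Figure D2:**
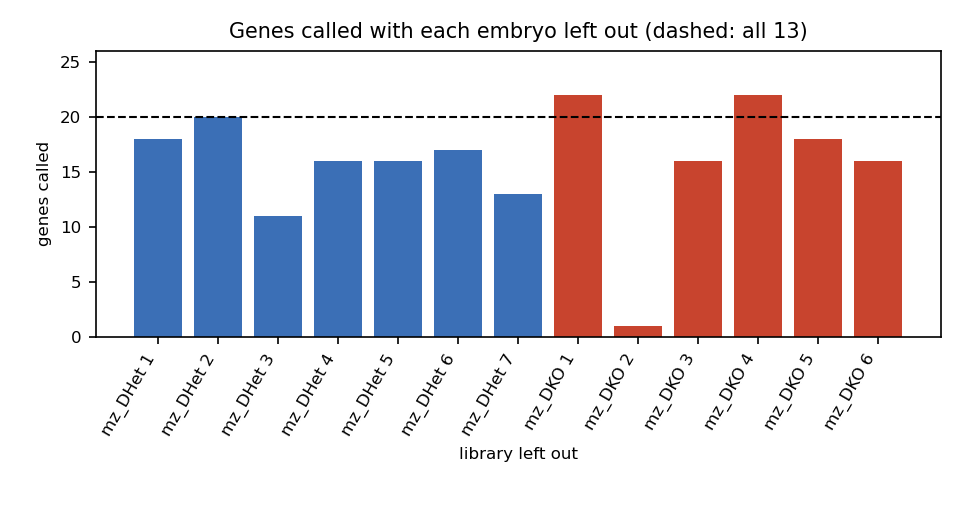
Number of genes called in mz_DKO against mz_DHet (full-length reads, adjusted p under 0.05) with each of the 13 libraries left out, mz_DHet in blue and mz_DKO in red; the dashed line is the 20 called with all 13. The count is 1 without mz_DKO replicate 2 and lies between 11 and 22 without any other library.

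The place of mz_DKO replicate 2 among the mutants is given beside this count. In 12 of the 20 genes it was the single lowest mz_DKO embryo, and it was so in 21.1% of all genes tested, against 10.6% to 15% for each other mz_DKO library. Without it 16 of the 20 log2 fold changes moved by less than 1.5 times, and the 4 that moved more were Gm7792, Gm16427, E330014E10Rik and Cdc7. Tulp1 kept its call (-4.49, adjusted p = 0.00148), and Gm6091, Tmem191c, Gm37795, Wdyhv1 and Atg16l2 each had an adjusted p = 0.0663.

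Values within each date show how far the date carries the differences. On 8 March (4 mz_DKO, 2 mz_DHet) the mz_DKO values of all 20 genes lay below all controls, as did 9.52% of all genes tested. On 22 May (2 and 5) those of 17 did, against 5.15% of all genes. The 20 genes were called on these same libraries, so these counts are a description. Tlk2 stood at 50.7 against 125 TPM on 8 March and 15.3 against 179 TPM on 22 May, a log2 fold change of -1.34 ± 0.61 and -3.59 ± 0.38. Rflnb stood at 2.31 against 19.0 TPM on 8 March (-2.64 ± 1.16) and 1.19 against 57.0 TPM on 22 May (-4.63 ± 0.74). Tmem191c differed less between dates, at -2.16 ± 0.61 and -2.45 ± 0.40, and Dusp10 at -2.41 ± 0.78 and -2.02 ± 0.30. Whether these effects differ between the dates was not tested.

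UMI reads of the same embryos gave 2 called genes of 11766 (0.017%), both lower (Tmem191c and S1pr2; 764 genes at an unadjusted p under 0.05). They are a second readout and not further embryos. Of the 20 genes, 18 could be tested in UMI reads and 16 had a negative log2 fold change, against 48.5% of all genes tested there. An unadjusted p under 0.05 was reached by 9 of the 18 with a lower value, against 3.55% of all genes. Ajuba stood at 6.87 ± 5.78 TPM in UMI reads of mz_DKO and 23.8 ± 8.50 TPM in mz_DHet (-2.39 ± 0.66, adjusted p = 0.292), and Rflnb at 1.57 ± 1.94 and 28.3 ± 20.8 TPM (-2.97 ± 0.73, adjusted p = 0.21). Tulp1 was at 0 in 5 of 6 mz_DKO embryos in UMI reads and at 2.07 TPM in the other, and also at 0 in 1 of the 7 controls. Tlk2 did not separate there, at 23.0 ± 11.9 and 27.0 ± 10.9 TPM (-0.32 ± 0.53, adjusted p = 0.974). Neither did Dusp10, at 3.87 ± 4.44 and 4.68 ± 3.29 TPM (-0.22 ± 0.72, adjusted p = 0.979). The sign turned in Gm7327 (1.65, adjusted p = 0.843) and Gm3139 (0.80, adjusted p = 0.978), and UMI values of Gm3139 ran from 14.6 to 2789 TPM within mz_DHet.

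**Figure D3:**
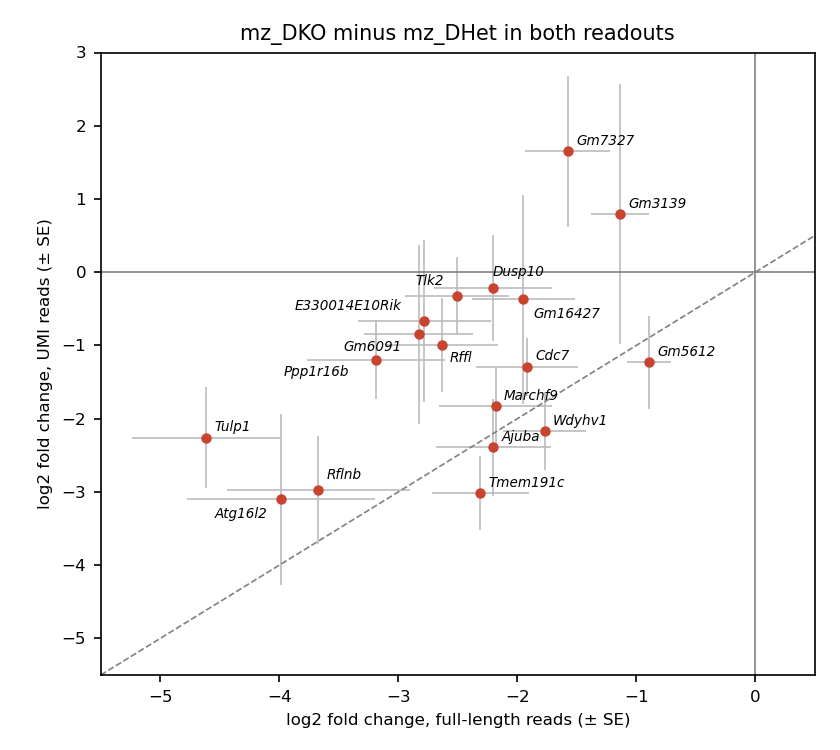
Log2 fold change of mz_DKO against mz_DHet in full-length reads (x axis) and in UMI reads of the same embryos (y axis), with ± SE, for the 18 called genes that could be tested in both; the dashed line marks equal values. Of the 18 points 16 lie below 0 on both axes, and Gm7327 and Gm3139 lie above 0 in UMI reads.

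S1pr2, a receptor for sphingosine-1-phosphate, was the other gene called in UMI reads (0.163 ± 0.400 TPM in mz_DKO, 10.7 ± 10.6 TPM in mz_DHet; -2.92 ± 0.54, adjusted p = 0.0168). In full-length reads it stood at 2.73 ± 4.21 and 33.9 ± 27.3 TPM with all 6 mz_DKO embryos below all controls, and missed the threshold (-2.80 ± 0.67, adjusted p = 0.0768). Its controls were uneven too, from 9.58 to 86.9 TPM. The mz_DKO embryos of 22 May had 9.10 and 7.11 TPM, and the 4 of 8 March had at most 0.106 TPM.

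No gene rose past the threshold. Among higher genes that reached a mean of 10 TPM in either group, the 5 with the smallest p were Tmem263, Hnrnpd, Zfp367, Ctnnb1 and Gm24572. Tmem263, a membrane protein gene, stood at 84.6 ± 36.1 TPM in mz_DKO and 20.2 ± 15.5 TPM in mz_DHet (1.68 ± 0.39, adjusted p = 0.0632). The RNA-binding protein gene Hnrnpd had 131 ± 82.7 and 28.3 ± 7.62 TPM (1.65 ± 0.40, adjusted p = 0.0806), and the zinc finger gene Zfp367 had 79.4 ± 27.0 and 30.3 ± 8.73 TPM (1.08 ± 0.26, adjusted p = 0.0806). Ctnnb1, which encodes β-catenin, had 89.2 ± 17.2 and 39.4 ± 14.9 TPM (1.29 ± 0.32, adjusted p = 0.0938). In Hnrnpd, Zfp367 and Ctnnb1 all 6 mz_DKO embryos stood above all 7 controls. Gm24572 was listed at 0 in all 7 controls and between 0 and 58.8 TPM in mz_DKO (adjusted p = 0.0985). It is annotated as a miRNA gene (chromosome 16, 18284550 to 18284637) and overlaps Dgcr8 on the same strand. In UMI reads Gm24572 was at 0 in every embryo of both groups.

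Loss of both receptors was set beside loss of each. All 3 mutants are measured against the same 7 mz_DHet embryos, so their values are given side by side and no overlap is drawn from them. Tlk2 had a log2 fold change of -2.50 ± 0.44 in mz_DKO, -2.59 ± 0.47 in mz_NrKO and -0.89 ± 0.49 in mz_EKO. For Tmem191c the values were -2.31 ± 0.40, -2.46 ± 0.44 and -0.90 ± 0.45, and for Ajuba -2.20 ± 0.49, -2.35 ± 0.53 and -1.12 ± 0.54. Gm5612 had -0.89 ± 0.18, -0.58 ± 0.20 and -0.02 ± 0.20. Over all genes, 18 fell and 0 rose in mz_NrKO (0.127%), and limma called 0 in mz_EKO (947 passed an unadjusted p of 0.05).

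**Figure D4:**
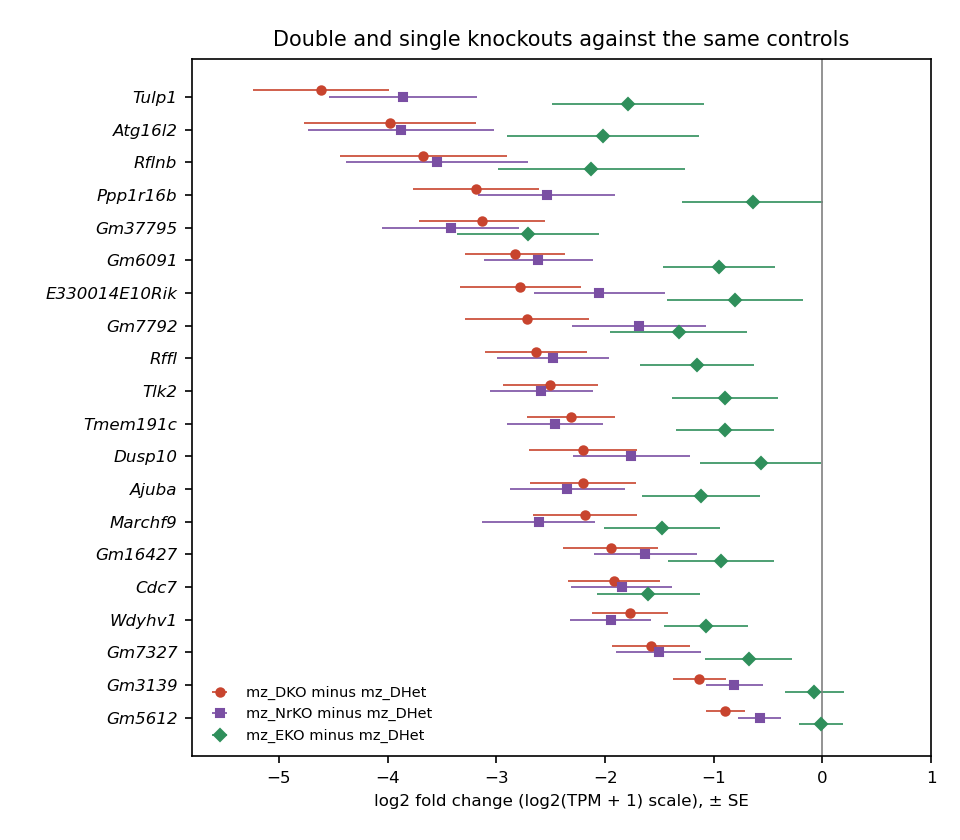
Log2 fold change (± SE, full-length reads) of the 20 called genes in mz_DKO (circles), mz_NrKO (squares) and mz_EKO (diamonds) embryos, each against the same 7 mz_DHet embryos. For Tlk2 the values are -2.50, -2.59 and -0.89, and for Ajuba -2.20, -2.35 and -1.12. All values are adjusted by a date term estimated between 8 March and 22 May from mz_DHet and mz_DKO alone.

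The direct test of mz_DKO against mz_NrKO asks what the added loss of Esrrb changed. Limma called 0 of 14147 genes (1409 passed an unadjusted p of 0.05), and 0 of the 20 genes reached an unadjusted p under 0.05. The 95% confidence intervals bound the difference: Tlk2 0.08 (-0.73 to 0.89), Ajuba 0.15 (-0.76 to 1.05), Tulp1 -0.75 (-1.91 to 0.40) and Gm5612 -0.32 (-0.65 to 0.02). Intervals reached beyond 1 on the log2 scale in some genes, as in Atg16l2 (-1.57 to 1.36). Tulp1 had a mean of 0.672 TPM in mz_NrKO, up to 2.51 TPM, where all mz_DKO embryos were at 0, so its interval depends on the pseudocount.

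The direct test against mz_EKO asks what the added loss of Nr5a2 changed. It called 25 genes, 13 lower and 12 higher in mz_DKO (0.177%; 15 lower and 8 higher with median-of-ratios scaling). It shares the 6 mz_DKO libraries with the first comparison, so the 20 genes are not independent here. The largest falls and rises named below are those among called genes with a mean of at least 10 TPM in mz_DKO or mz_EKO. All 20 had lower values in mz_DKO than in mz_EKO, as had 47.8% of all genes, and 4 were called: Tulp1 (0 against 7.59 ± 4.56 TPM, adjusted p = 0.0255), Ppp1r16b (3.44 ± 3.52 against 41.6 ± 36.7 TPM; -2.55 ± 0.56, adjusted p = 0.0324), Gm5612 (-0.88 ± 0.17, adjusted p = 0.0224) and Gm3139 (-1.06 ± 0.23, adjusted p = 0.0324). Beyond these, the largest falls were Chit1, a chitinase (1.34 ± 2.08 against 47.1 ± 41.0 TPM; -4.01 ± 0.78, adjusted p = 0.0224; 2.69 Mb from Nr5a2), Gm11843 (-3.76 ± 0.80), the RNA sensor gene Dhx58 (-2.92 ± 0.61) and the zinc finger gene Zfp108 (-2.63 ± 0.52). Chit1 was at 5.64 ± 9.46 TPM in mz_DHet, with a log2 fold change of 2.68 ± 0.91 in mz_EKO against mz_DHet (adjusted p = 0.709). Its mz_DHet level differed by date, with 16.1 and 22.3 TPM on 8 March and at most 1.05 TPM on 22 May. For Chit1 in mz_DKO against mz_DHet the log2 fold change was -3.71 ± 1.12 on 8 March and 0.90 ± 0.59 on 22 May. The largest rises were Aup1, a lipid droplet protein (113.9 ± 37.3 against 39.7 ± 29.8 TPM; 2.02 ± 0.42, adjusted p = 0.0233), the G protein chaperone gene Ric8a (1.99 ± 0.46), the mitochondrial ribosome gene Mrpl9 (1.99 ± 0.44), the ubiquitin ligase gene Trim27 (1.96 ± 0.43) and Tmem263 (1.85 ± 0.38). The count of 25 was 0 without mz_DKO replicate 3 or 5, 6 without replicate 4, 11 without replicate 6 and 14 without replicate 2.

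The z_NrHet embryos gave a control group other than mz_DHet. They carry a heterozygous Nr5a2 deletion and differ from mz_DHet in genotype, and all 7 are of 8 March. Against them 21 genes were called in mz_DKO, 15 lower and 6 higher (0.148%). This comparison too shares the mz_DKO libraries. Of the 20 genes, 19 had lower values in mz_DKO (43% of all genes had) and 7 were called, and in 8 of the 20 all 6 mz_DKO embryos lay below all 7 z_NrHet embryos, as did 0.353% of all genes. Rflnb stood at 45.8 TPM on average in z_NrHet (-3.89, adjusted p = 0.0152), Dusp10 at 32.6 TPM (-2.32, adjusted p = 0.0253) and Tlk2 at 129 TPM (-1.76, adjusted p = 0.07). Gm37795 went the other way by a small amount (0.08, adjusted p = 0.982), with a mean of 0.6 TPM in z_NrHet against 9.82 TPM in mz_DHet. The count of 21 was 6 with 8 March libraries alone, and 7, 8, 3 and 7 without mz_DKO replicates 3, 4, 5 and 6.

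At the 4-cell stage, other embryos of both genotypes (10 mz_DKO, 6 mz_DHet) gave 336 called genes of 13044 (2.58%), 219 of them lower (1.68%). Of these embryos 9 mz_DKO and 5 mz_DHet carry 17 June 2022, and 1 of each group carries 22 May. Of the 20 genes 18 could be tested, all 18 had lower values in mz_DKO (45.1% of all genes had) and 11 were called. An unadjusted p under 0.05 was reached by 14 of the 18 with a lower value, against 6.52% of all genes. Tlk2 fell from 107.9 ± 44.7 to 18.8 ± 6.75 TPM (log2 fold change -2.44), Ajuba from 68.2 ± 20.9 to 19.6 ± 11.8 TPM (-1.96, adjusted p = 0.0055) and Rflnb from 52.9 ± 20.4 to 3.99 ± 2.79 TPM (-3.56). Ppp1r16b had -3.90 and Tulp1 -3.64 there, both called. S1pr2 fell as well (22.5 ± 13.0 to 1.53 ± 2.18 TPM, -3.38). Cdc7 stood at 83.5 ± 22.2 and 72.3 ± 27.8 TPM (-0.32, adjusted p = 0.623), and the chromosome 5 genes Gm7792, Gm3139 and Gm16427 had log2 fold changes of -0.20, -0.24 and -0.16 (adjusted p = 0.816, 0.732 and 0.872). The difference between the stages passed in limma for 0 of 14818 genes (666 did so before adjustment), so no gene was shown to respond differently at the 2 stages.

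Levels at the 8-cell stage complete the course (10 mz_DKO, 21 mz_DHet), and no test was run there. Of these 2 groups only mz_DHet has embryos dated July, and the means are not adjusted for date. Tulp1 stood at 5.98 ± 4.58 TPM in mz_DKO and 31.4 ± 20.8 TPM in mz_DHet, and Rflnb at 14.8 ± 8.06 and 94.98 ± 39.0 TPM. Tlk2 and Ajuba were low in both groups by then, at 11.3 ± 6.90 and 19.1 ± 10.5 TPM for Tlk2 and 8.72 ± 6.06 and 22.3 ± 18.3 TPM for Ajuba. In Dusp10 the order of the means was opposite, with 33.4 TPM in mz_DKO and 11.3 TPM in mz_DHet.

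**Figure D5:**
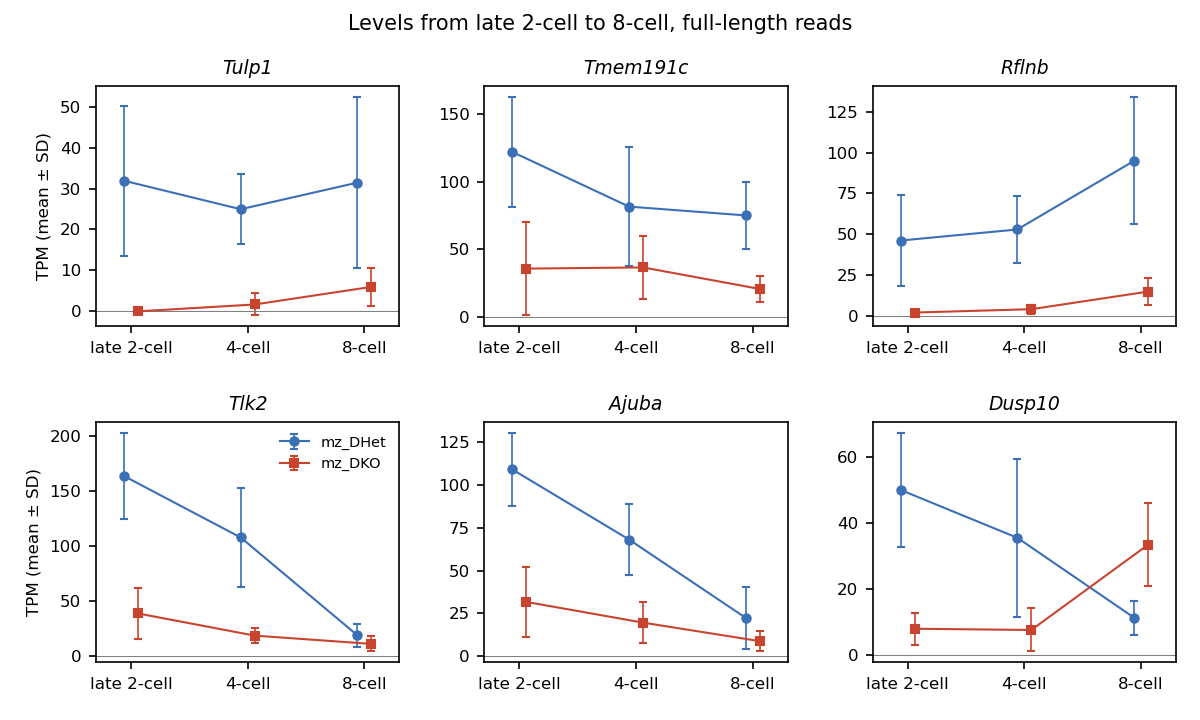
Full-length TPM (mean ± SD over embryos) of 6 of the called genes at the late 2-cell, 4-cell and 8-cell stages in mz_DHet (blue circles; 7, 6 and 21 embryos) and mz_DKO (red squares; 6, 10 and 10 embryos). Tulp1 and Rflnb stay low in mz_DKO at each stage, while the Dusp10 means change order at the 8-cell stage (33.4 TPM in mz_DKO, 11.3 TPM in mz_DHet).

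Genes that rise in development from the early to the late 2-cell stage were counted next. Of 2830 such genes (at least 4-fold from early 2-cell embryos labelled mz_Nrpp to late 2-cell z_NrHet embryos), 12 fell and 0 rose, against 0.141% called over all genes. Before adjustment 118 were higher (4.17%) and 196 lower (6.93%), against 4.21% and 4.14% of all genes. The median log2 fold change was -0.0065 against 0.039 for all genes. The 21 mz_Nrpp embryos, with no deleted allele of Nr5a2, carry 3 dates, all in later years than the 8 March 2022 of the z_NrHet embryos, so stage and date cannot be told apart in these lists. Of the 2416 tested genes that fall in that step limma called 0, and their median was 0.028. Before adjustment 76 of them were higher (3.15%) and 48 lower (1.99%). Among 33 genes of the 2-cell burst 0 were called (0 higher and 2 lower at an unadjusted p under 0.05; median -0.13), and among 37 oocyte and maternal genes 0 were called (1 lower; median 0.044). AF067063 of the burst list stood at 185 ± 175 and 739 ± 375 TPM (-1.74 ± 0.64, adjusted p = 0.369).

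Lineage genes gave 0 calls in limma. Over all genes 4.21% were higher and 4.14% lower at an unadjusted p under 0.05. The 14 trophectoderm genes tested had a median log2 fold change of -0.41 (2 higher and 2 lower at an unadjusted p under 0.05). Tead4, the transcription factor that works with Hippo effectors in that lineage, stood at 28.2 ± 11.5 TPM in mz_DKO and 128 ± 48.6 TPM in mz_DHet. All 6 mutants were below all controls, and the adjusted p was 0.356 (-2.15 ± 0.78); at the 4-cell stage Tead4 fell (-3.46, adjusted p = 1.13e-05). Gata2 of the trophectoderm list went the other way, at 13.2 ± 6.46 TPM in mz_DKO and 4.19 ± 3.53 TPM in mz_DHet (1.41 ± 0.68, adjusted p = 0.578). The 18 pluripotency genes had a median of -0.13 (1 higher, 1 lower). Zfp42, known as Rex1, stood at 39.0 ± 14.3 TPM in mz_DKO against 9.05 ± 3.67 TPM in mz_DHet with no overlap (2.00 ± 0.67, adjusted p = 0.291), and its UMI value was 2.06 (adjusted p = 0.598). Tdgf1 of the same list was lower, at 1.13 ± 1.77 and 12.6 ± 8.67 TPM (-1.77 ± 0.68, adjusted p = 0.413). Its UMI log2 fold change was -1.86 (adjusted p = 0.501), and at the 4-cell stage it fell (-3.25, adjusted p = 0.00468). Among 25 nuclear receptor and coregulator genes (median 0.088; 0 higher, 1 lower) and 30 sphingolipid genes (median 0.20; 3 higher, 2 lower) 0 were called in full-length reads. The sphingolipid members include S1pr2 and Cers2, a ceramide synthase (78.5 ± 35.8 against 177 ± 53.5 TPM, log2 fold change -1.28 ± 0.37, adjusted p = 0.168), which fell at the 4-cell stage (-1.57, adjusted p = 0.000481). Degs1 of this list was higher in mz_DKO, at 242 ± 47.3 against 170 ± 74.9 TPM (0.86 ± 0.34, adjusted p = 0.431).

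Housekeeping lists gave 0 calls in limma too. The shares over all genes at an unadjusted p under 0.05 were 4.21% higher and 4.14% lower. Median log2 fold changes were 0.21 for 39 DNA repair genes (3 higher and 2 lower at an unadjusted p under 0.05), -0.088 for 50 mitosis genes (1 and 2), 0.052 for 34 p53 and stress genes (0 and 3), 0.13 for 43 ribosome biogenesis genes (0 and 0), 0.038 for 28 cholesterol genes (2 and 1) and -0.066 for 49 oxidative phosphorylation genes (0 and 1). Within them Ei24, a p53 target, stood at 472 ± 200 TPM in mz_DKO and 1576 ± 503 TPM in mz_DHet without overlap (-1.42, adjusted p = 0.0804), and fell at the 4-cell stage (-1.08, adjusted p = 0.000799). In UMI reads the groups overlapped in Ei24, at 103.8 ± 57.8 and 130 ± 70.5 TPM (-0.64, adjusted p = 0.764). The cholesterol enzyme gene Fdft1 stood at 183 ± 42.3 and 327 ± 66.8 TPM, also without overlap (-0.80, adjusted p = 0.115). Higher in the cholesterol list were Pmvk, at 31.0 ± 9.49 and 10.8 ± 6.21 TPM (1.49, adjusted p = 0.301), and Nsdhl, at 4.39 ± 5.03 and 1.34 ± 1.75 TPM (1.44, adjusted p = 0.57).

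Markers of other cells were low or overlapped between the groups, and their part in the results was not tested. Of 7 sperm markers 4 were at 0 in all 13 libraries, and the list summed to 0 to 2.94 TPM in mz_DKO and 0 to 4.63 TPM in mz_DHet. The 15 cumulus and granulosa markers summed to 160 to 375 and 184 to 411 TPM, with 5 at 0 in all 13 libraries and 10 under 1 TPM in all. Amhr2 had the highest value of that list (407 TPM), and the next member, Kitl, reached at most 32.2 TPM. The 8 oviduct markers summed to 301 to 516 and 113 to 399 TPM, and the 8 blood markers to 7.43 to 301 and 7.78 to 54.7 TPM. Epcam had the highest value of the oviduct list (501 TPM), and the next member, Muc1, reached at most 25.8 TPM. Of 3 oviduct markers tested, 1 was higher in mz_DKO at an unadjusted p under 0.05 in limma and 0 were called. Hba-a2 had the highest value of the blood list (204 TPM), and the next member, Hbb-bs, reached at most 40.8 TPM. The 8 Y-linked genes, which are not markers of other cells, summed to 7.39 to 72.4 and 3.84 to 72.6 TPM.

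None of the 20 genes lay within 10 Mb of Nr5a2 or Esrrb. RefSeq promoter windows (GRCm38.p6, 250 bases before to 50 after a start site) were at hand for 12 of the 20. They were searched on both strands for CAAGGTCA and CAAGGCCA, forms of the half-site that both receptors can bind. A match was found in 1 of the 12, against 3.5% of 9567 tested genes with a window and 3.9% of all 32851 windows. A match is a description and not a bound site. It lay in the window of Tmem191c, the gene called in both readouts, on the strand opposite to the gene and 186 bases before the RefSeq start site at 17276300 (chr16:17276104-17276131, plus strand, motif in capitals). The GENCODE gene begins 223 bases earlier, at 17276077, so by that annotation the stretch lies inside the gene:
Tmem191c: tagcaaaggaTGACCTTGaactcctgat

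The authors' deposited table gives its own comparison of late 2-cell mz_DKO embryos. At the authors' thresholds (1.5-fold, false discovery rate under 0.1, over 10 TPM) the authors' deposited table holds 182 higher and 287 lower genes in full-length reads, and 51 and 126 in UMI reads. Of the 20 genes, 17 pass in the authors' deposited table, all but E330014E10Rik, Gm7792 and Gm16427, and 5 pass in its UMI values. For Tmem263 the authors' deposited table has a log2 fold change of 1.49 with a false discovery rate of 0.0102. Other genes not called here in full-length reads pass there too. The higher ones include Hnrnpd (1.52, false discovery rate 0.0283), Zfp367 (1.12, 1.05e-05), Ctnnb1 (1.08, 0.00885) and Zfp42 (2.05, 4.36e-05). The lower ones include Tead4 (-2.23, 1.97e-07), S1pr2 (-4.04, 1.01e-05), Ei24 (-1.39, 7.6e-10) and Tdgf1 (-3.16, 0.000612). Gm24572, Gata2, Pmvk and Nsdhl do not pass.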

How the data were processed

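Single late 2-cell embryos were profiled with a protocol derived from FLASH-seq, per the labels' protocols. The deposited values are TPM per gene, made by the authors, with cutadapt, STAR, RSEM, DESeq2 and mm10 named in the submitters' processing notes without versions. The authors' deposited tables also give log2 fold changes and false discovery rates (adjusted p-values) of their own comparisons. Values were taken as log2(TPM + 1), which understates changes of low genes. Genes reaching 5 TPM in 6 or more of the 46 late 2-cell libraries (4 or more at the 4-cell stage) entered 1 limma-trend model per stage with empirical Bayes moderation (limma version 3.58.1 under R version 4.3.3) with group and labelled date as factors, and called at a two-sided Benjamini-Hochberg adjusted p under 0.05. All groups of a stage share 1 spread. The script was tested on simulated data. No label ties embryos to a mother, so p-values reflect embryo-to-embryo spread only. Named are the targeted genes, all called genes, the 5 higher genes with the smallest p and, per list, up to 3 members with the smallest p; the report describes some of these. Ei24, Fdft1, Pmvk, Nsdhl, Gata2, Tdgf1 and Degs1 were taken up from the latter after their values were seen. The members and gene lists were chosen with earlier results of these data known. Positions are from GENCODE vM21 (mm10). Alternatives were other pseudocounts (0.1 and 5), filters, scaling, date handling, fewer groups, a replicate block and each library left out; the comparison with z_NrHet on 8 March alone was added after seeing the data.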

Additional observations from a re-analysis of the deposited data

Results flagged for a closer look

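In 11 of 146 groups of values examined, 1 embryo stood apart from the other members of its group (its gap to the nearest value, over the group's range, exceeded the 95% critical value of Dixon's test). Chance flags about 1 in 20 groups of normally distributed values. The test was run on TPM without a log, so the chance rate here is not known. Among the genes called lower, Gm6091 reached 774 TPM in mz_DHet replicate 2 (next 425), Tmem191c 105.2 TPM in mz_DKO replicate 4 (next 34.8), Gm37795 1.91 TPM in mz_DKO replicate 5 (next 0.404) and Rflnb 5.45 TPM in mz_DKO replicate 6 (next 2.01). The mz_DKO replicate 1 embryo was highest of its group in AF067063 (514 TPM, next 197), Pramef25 (29.9 TPM, next 9.67) and Rxra (274 TPM, next 60.3). The others were Hspa1a in mz_DHet replicate 6 (42.5 TPM, next 20.2), Nsdhl in mz_DKO replicate 4 (13.9 TPM, next 5.22), Dhx58 in mz_DHet replicate 4 (14 TPM, next 6.59) and Aup1 in mz_DKO replicate 2 (184 TPM, next 118).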

How the results depend on the processing

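All 20 genes kept a negative log2 fold change in each of the 10 full-length alternatives that gave them a value (9 for Gm37795 and Marchf9, which the 10 TPM filter removed) and with each of the 13 libraries left out. Their count did not hold. It was 84 (26 higher, 58 lower, with 15 of the 20 among them) without the date factor. With the 2 groups only it was 35 (6 higher, 29 lower, with 11 of the 20 among them). The count was 0 on 8 March, 0 on 22 May and 2 in UMI reads, and ran from 1 to 22 with a library left out. Library numbers were not shown to pair embryos: correlations of deviations between same-numbered embryos ran from -0.0793 to 0.103, and 1 of 6 correlated best with its own number. With a replicate block for the number, fitted to the 2 groups alone, 0 genes were called in either readout. The UMI count of 2 was 1 with a pseudocount of 0.1 or a 10 TPM filter, 9 without a filter or without the date, 4 with the 2 groups only, 0 on 8 March and 18 on 22 May, and 1 to 4 with a library left out. Neither Tmem191c nor S1pr2 was among the 4 with the 2 groups only (2 higher, 2 lower) or the 18 on 22 May (14 higher, 4 lower). Against mz_NrKO the count of 0 became 9 without a filter (0 to 1 with a library left out). Against mz_EKO 25 became 40 with a pseudocount of 5 (0 to 30 with a library left out). Against z_NrHet 21 became 13 with a pseudocount of 0.1 and 6 on 8 March (3 to 20 with a library left out). At the 4-cell stage 336 became 214 without the date, and for the stage difference 0 became 1 with a pseudocount of 5. Of 1902 alternative values of named genes, 13 changed sign: Rxrb (0.000368 without the date, 0.956 on 8 March), Esrrg (-0.0949) and Polr1a (-0.1945) on 8 March, Chit1 (0.895 on 22 May, 0.18 with the replicate block), Esrrb (0.0146 without mz_DKO replicate 2, 0.1365 without mz_DHet replicate 7; lowest with a library left out -0.4225) and, in UMI reads, Gm3139 (0.795), Gm7327 (1.65), Trim28 (0.040), Rxra (0.368) and Prkcz (0.168). The causes were not tested. TPM keep no counts, so what depth limits cannot be stated. On 8 March there were 2 controls, which limits the values of that date.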
